A study of Mus musculus with 12 samples.

Results

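The 8 genes described here are the muscle ubiquitin ligases Fbxo32, Trim63, Trim54 and Trim55, the transcription factors Foxo1 and Foxo3, the secreted growth inhibitor Mstn and the mitochondrial receptor Bnip3. They were chosen by name, as genes known from muscle wasting, out of 56350 gene IDs in the table. All 8 were found, and 6 of the 8 passed the filter on low values that was set for testing (a normalised read count of at least 10 in at least 3 libraries), which 13916 genes passed. The 12 libraries, 3 for each of 4 groups, were made from polyadenylated RNA of the left ventricular apex of mice, taken 8 weeks after surgery. Knockout TAC mice lacked, in the whole body, the p53-induced long noncoding RNA lincRNA-p21 (Trp53cor1 in the table) and had transverse aortic constriction (TAC), which narrows the aorta and loads the left ventricle with pressure. Knockout sham mice had the same genotype and a sham operation. Control TAC and control sham mice were littermates given as heterozygous for lincRNA-p21, so the controls also carried a disrupted copy. The labels used here state no sex, age or strain.

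Muscle fibres lose protein when ubiquitin ligases mark their proteins for the proteasome. Fbxo32 encodes atrogin-1 and Trim63 encodes MuRF1, the ligases that define the atrophy programme of skeletal muscle, and Trim55 and Trim54 encode the related sarcomere proteins MuRF2 and MuRF3. FoxO factors switch on Fbxo32, Trim63 and autophagy genes, and insulin signalling through Akt holds FoxO factors outside the nucleus. Myostatin, the product of Mstn, restrains muscle growth through activin receptors and Smad proteins, and Bnip3 tags mitochondria for autophagy and is a target of both hypoxia signalling and FoxO3.

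The libraries held 10323605 to 13238934 reads in genes. Trp53cor1 had 0 reads in all 6 knockout libraries and 11 reads in the 6 control libraries, 4 of which had a read; a count of 0 allows up to 3 reads over a group. All 10 markers of ventricular cardiomyocytes had reads in the table. On the second principal component control sham replicate 3 lay far from the rest (score −46.8, others −15.6 to 33.7) and had the lowest share of mitochondrial reads, 12.5% against up to 19.99%. Knockout TAC replicate 3 had a score of −15.6 on that component, with 22.9 and 33.7 in the other libraries of its group. Values are normalised read counts, that is reads divided by a size factor of each library, given as mean ± SD with n = 3. Changes are differences of log2(normalised count + 1) ± SE with adjusted p from limma-trend, a linear model fitted over all tested genes. No label ties a library to an animal, and p-values therefore cover only the spread between these samples, which may be technical.

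Per length of all annotated exons, the order of the 7 genes with reads was the same in all 4 groups. Levels were compared between genes as RPKM, reads scaled to that length and library size, computed here. The longest transcript is shorter for Trim63 (1886 against 2842 bases), Bnip3 (1756 against 2265) and Foxo3 (6848 against 7571). The order of Foxo3 and Bnip3 and the gap between Trim54 and Trim63 therefore depend on the length used. Trim54 was highest, with mean levels of 151 RPKM in knockout TAC, 147 RPKM in knockout sham, 136 RPKM in control TAC and 171 RPKM in control sham libraries. Trim63 followed at 95.5 RPKM in knockout TAC, 96.0 RPKM in knockout sham, 83.5 RPKM in control TAC and 86.0 RPKM in control sham libraries. Trim55 came next at 35.1, 35.5, 43.5 and 28.4 RPKM in the same group order. The 3 MuRF ligases thus stood above both FoxO factors, Bnip3 and Mstn in the deposited table. Foxo3 had 11.6 RPKM in knockout TAC, 13.4 RPKM in knockout sham, 14.0 RPKM in control TAC and 13.8 RPKM in control sham libraries. Bnip3 had 9.34 RPKM in knockout TAC, 7.20 RPKM in knockout sham, 12.3 RPKM in control TAC and 8.92 RPKM in control sham libraries. Foxo1 had 2.79, 2.81, 2.61 and 3.33 RPKM, and Mstn 0.104, 0.168, 0.179 and 0.131 RPKM, in that group order. At the length of all annotated exons, neighbours in this order had ranges that did not overlap within a group. The exception was Foxo3 and Bnip3, which overlapped in knockout TAC, control TAC and control sham libraries. Fbxo32 was listed at 0 in all 12 libraries and was given no place in the order.

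**Figure D1:**
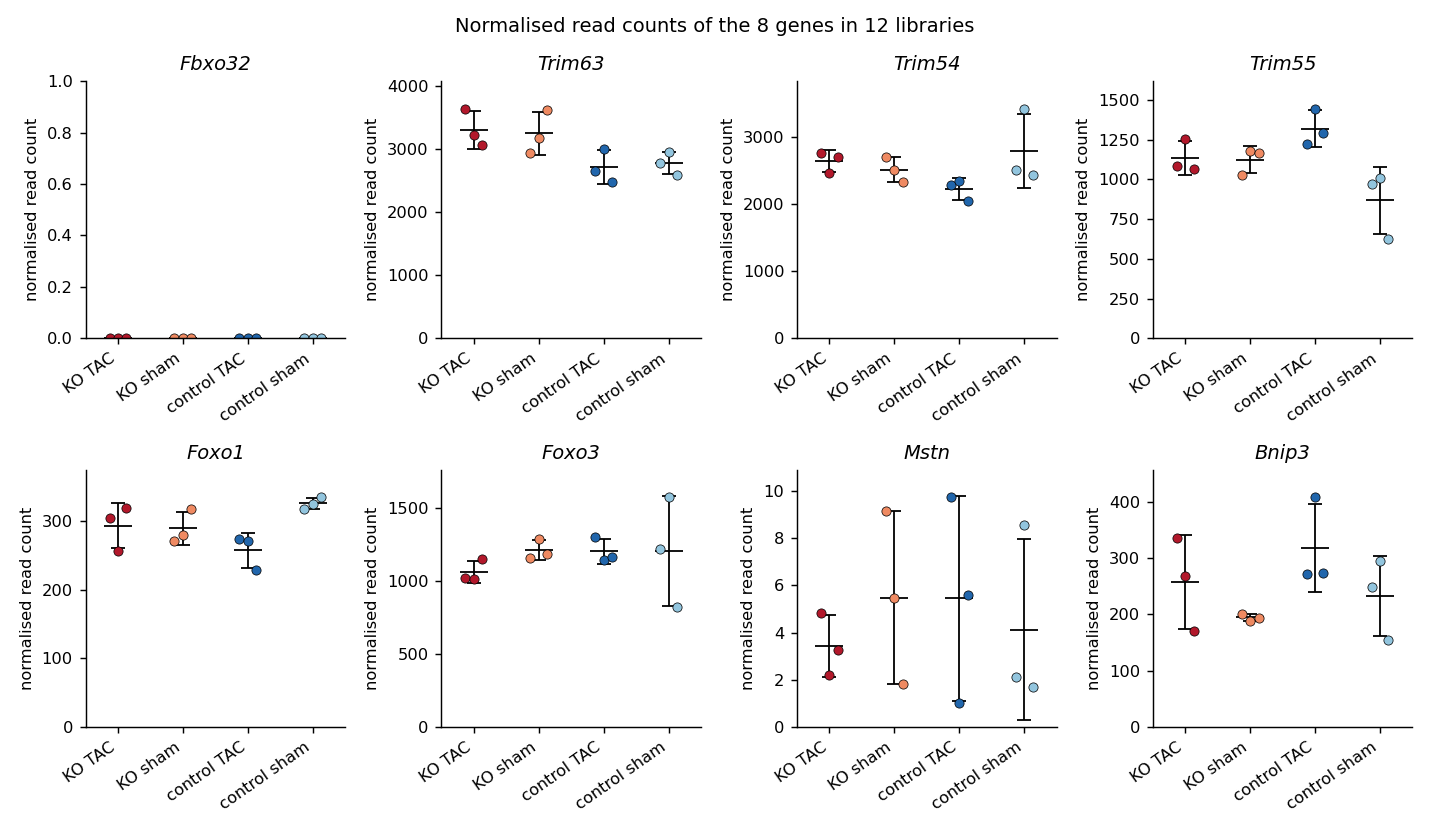
Normalised read count of each of the 8 genes (y axis, linear, from 0) in the 3 libraries of knockout TAC, knockout sham, control TAC and control sham mice (points), with the group mean (horizontal mark) and SD (whiskers). Trim55 is higher in the control TAC libraries (1222 to 1445) than in the control sham libraries (624 to 1007), and Fbxo32 is at 0 in every library.

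TAC against sham in controls asks how pressure overload moved these genes in mice with lincRNA-p21. Trim55 rose, and it was the only member to pass limma-trend's adjusted p of 0.05. That is 1 of 6 tested members, where 21.6% of all tested genes passed, so the share called among the members was near the background. All 3 control TAC libraries lay above all 3 control sham libraries for Trim55, and below them for Trim54 and Foxo1, which makes 3 of 6 members without overlap against 35.5% of all tested genes. The median change of the 6 members was 0.01, as over all tested genes (median 0.01).

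In knockouts no member passed in the comparison of TAC with sham. Of all tested genes 0.00719% (1 gene) passed limma-trend there, and 929 genes but 0 members had an unadjusted p under 0.05. edgeR and DESeq2 on recovered reads also called 0 members. Voom with quality weights called 1 member there, Bnip3 (0.62, adjusted p = 0.0393), among 843 genes. Foxo3 was the only tested member whose groups did not overlap, with lower values in the knockout TAC libraries, against 17.2% of all tested genes. Knockout against control after sham likewise gave 0 members by limma-trend (0.0% of all tested genes passed), edgeR and DESeq2. There, 604 genes and 1 member, Trim55, had an unadjusted p under 0.05. Trim55 and Foxo1 were the 2 members without overlap, against 9.62% of all tested genes.

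Knockout against control after TAC is the genotype comparison under pressure load, and 8.23% of all tested genes passed it. By limma-trend 0 of the 6 members did, and 1 member, Trim63, had an unadjusted p under 0.05, as 3477 of all tested genes had. edgeR and DESeq2 also called 0 members. Voom with quality weights called Trim63 (0.36, adjusted p = 0.0116), among 3812 genes. Trim63 was also called without control sham replicate 3 and knockout TAC replicate 3 (0.34, adjusted p = 0.0297), among 3315 genes. With the trend with transcript length and GC content removed, limma-trend called Foxo1 (0.60, adjusted p = 0.015), among 588 genes. Trim63 and Trim54 were higher in all 3 knockout TAC libraries than in any control TAC library, against 31.1% of all tested genes without overlap. The test of whether TAC moved a gene differently in knockouts than in controls, the difference of the TAC effects, passed 0.309% of all tested genes and 0 members, also by edgeR and DESeq2, while voom with quality weights called 1 member, Trim54 (0.53, adjusted p = 0.0335). Its unadjusted p was under 0.05 for 2292 genes and for 1 member, Trim55. TAC against sham in controls and knockout against control after TAC share the control TAC libraries, so a member's changes in both are not independent of each other.

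**Figure D2:**
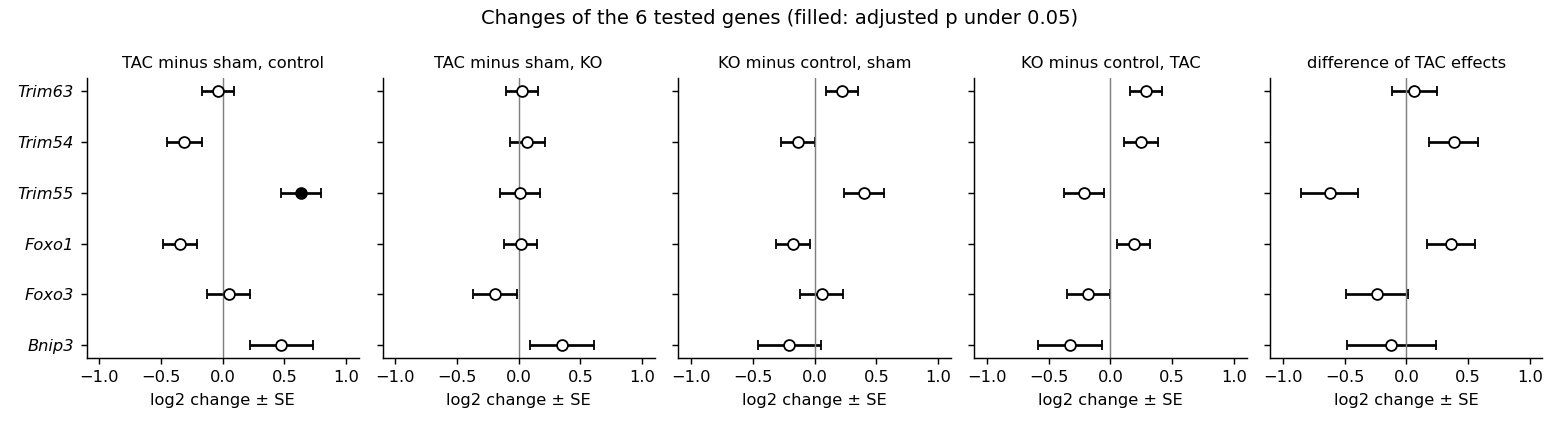
Change in log2(normalised count + 1) with its SE (x axis) for the 6 tested members (rows) in TAC against sham of each genotype, in knockout against control after each surgery, and for the difference of the TAC effects; a filled point marks an adjusted p under 0.05. The one filled point is Trim55 in TAC against sham of controls, at 0.63 ± 0.16.

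Trim55 (ENSMUSG00000060913.6, GRCm38 chromosome 3, 19644474 to 19692421, forward strand) encodes MuRF2, a ligase bound to microtubules and the sarcomeric M band. Its normalised counts were 1085, 1257 and 1064 in knockout TAC and 1029.5, 1180 and 1165 in knockout sham libraries, against 1222, 1445 and 1290.3 in control TAC and 972, 1007 and 624 in control sham libraries. Control TAC was the highest group and control sham the lowest, without overlap between them, and the means of both knockout groups lay in between. TAC against sham in controls gave a change of 0.63 ± 0.16 (1.55-fold, adjusted p = 0.0125), from 1319 ± 114 in control TAC and 868 ± 212 in control sham libraries. In this whole tissue, more RNA per cell and more cells of a type with the RNA cannot be told apart.

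The same gene averaged 1135.5 ± 105.5 in knockout TAC and 1125 ± 82.8 in knockout sham libraries, a change of 0.01 ± 0.16 (adjusted p = 0.99). The difference of the TAC effects was −0.62 ± 0.23 with an adjusted p of 0.20, so the rise in controls was not shown to differ from the change in knockouts. After sham the knockout libraries were all above the control libraries (0.40 ± 0.16, adjusted p = 0.93), and after TAC the change of knockout against control was −0.22 ± 0.16 (adjusted p = 0.43). Without control TAC replicate 2 the rise in controls was 0.57 with an adjusted p of 0.0602, and with only the 6 control libraries in the fit the adjusted p was 0.0605 at the same change of 0.63. Without control sham replicate 3 the change was 0.41 and still passed. Among 12658 genes of known symbol, those whose pattern over the 12 libraries lay closest to Trim55 were Ehd4, Rnft1 and Cul4a. Their root mean square differences from it were 0.0869, 0.0931 and 0.0942 on the log2 scale, each gene centred on its own mean, against a median of 0.405 over those genes. Ehd4 encodes an endosome-remodelling ATPase, Rnft1 a RING-finger ligase of the endoplasmic reticulum, and Cul4a the scaffold of a cullin ligase.

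Trim63 (ENSMUSG00000028834.13, chromosome 4, 134315120 to 134329629, forward strand) encodes MuRF1, the ligase that marks thick-filament proteins in wasting muscle. It is known as a joint target of FoxO factors and the glucocorticoid receptor. Its upstream sequence is shown because it holds the letters of both motifs side by side, and that of Trim54 because this related ligase holds none of them. Each window is the 250 bases before the start site in RefSeq (GRCm38.p6), written 5′ to 3′ on the gene's strand, at chr4:134314870-134315119 (forward strand) for Trim63 and chr5:31116362-31116611 (forward strand) for Trim54. In capitals stand the glucocorticoid response core (GAACA and TGTTC with 3 bases between them) and the FoxO motif (GTAAACA, or TGTTTAC on the other strand).
Trim63: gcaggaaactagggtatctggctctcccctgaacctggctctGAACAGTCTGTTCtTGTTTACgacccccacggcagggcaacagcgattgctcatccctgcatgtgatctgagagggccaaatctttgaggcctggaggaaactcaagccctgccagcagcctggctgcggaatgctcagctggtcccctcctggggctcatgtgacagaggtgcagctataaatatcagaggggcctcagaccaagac
Trim54: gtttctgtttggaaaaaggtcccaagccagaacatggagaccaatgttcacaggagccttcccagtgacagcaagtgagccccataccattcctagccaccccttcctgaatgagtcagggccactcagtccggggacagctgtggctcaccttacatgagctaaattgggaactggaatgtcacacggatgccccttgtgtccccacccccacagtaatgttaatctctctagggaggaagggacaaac
In Trim63 the glucocorticoid core starts at position −208 and the FoxO letters at −194 from the start site, without overlap. Searched on both strands, the core stood in 0.0396% and the FoxO letters in 3.17% of 32851 RefSeq windows of the same length. A match of letters describes the sequence and is not a bound site.

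Trim63 had 3640.3, 3217 and 3059 normalised counts in knockout TAC and 2944, 3179 and 3620.3 in knockout sham libraries, against 2647, 3003 and 2476 in control TAC and 2785, 2948 and 2594 in control sham libraries. All 3 knockout TAC libraries were above the control TAC libraries, and the other pairs of groups overlapped. The change of knockout against control after TAC was 0.29 ± 0.13 (1.22-fold, adjusted p = 0.17), from 3305 ± 301 in knockout TAC and 2709 ± 269 in control TAC libraries. Under voom with quality weights that change was 0.36 with an adjusted p of 0.0116, and without knockout TAC replicate 3 and control sham replicate 3 it was 0.34 with an adjusted p of 0.0297. TAC against sham gave 0.03 ± 0.13 in knockouts (adjusted p = 0.98) and −0.04 ± 0.13 in controls (adjusted p = 0.86). After sham, knockout against control gave 0.22 ± 0.13 (adjusted p = 0.93), and the difference of the TAC effects was 0.06 ± 0.18 (adjusted p = 0.89). MuRF1 RNA thus passed in none of the 5 comparisons of the main limma-trend fit. Markers of ventricular cardiomyocytes, the cells known to make the MuRF ligases in heart, also lay higher in knockout TAC than in control TAC libraries. The summed normalised count of the 10 markers was 1024360 to 1117630 in knockout TAC, 1128910 to 1184970 in knockout sham, 933461 to 1008640 in control TAC and 1009090 to 1030520 in control sham libraries. After TAC 5 of the 10 were higher and 2 lower in knockouts than in controls (limma-trend); their part in the values of Trim63 and Trim54 was not tested.

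Trim54 (ENSMUSG00000062077.14, chromosome 5, 31116712 to 31137630, forward strand) encodes MuRF3, which binds microtubules and the Z disc. Its normalised counts were 2760, 2461 and 2705 in knockout TAC and 2704, 2505 and 2334 in knockout sham libraries, against 2286, 2349.5 and 2046 in control TAC and 2514.5, 3422 and 2432 in control sham libraries. The control TAC libraries all lay below the knockout TAC and the control sham libraries, and a single control sham library of 3422 was the highest. TAC against sham in controls gave −0.31 ± 0.14 (0.807-fold, adjusted p = 0.12), from 2227 ± 160 in control TAC and 2789 ± 549 in control sham libraries. That value depended on the processing. It was −0.40 without control sham replicate 3 (adjusted p = 0.0393), −0.15 without control sham replicate 2 (adjusted p = 0.452) and −0.43 under voom with quality weights (adjusted p = 0.0166), and it was 0.15 after removal of the trend with transcript length and GC content (adjusted p = 0.58). In knockouts TAC against sham gave 0.07 ± 0.14 (adjusted p = 0.94), and the difference of the TAC effects was 0.38 ± 0.20 (adjusted p = 0.35; 0.53 and 0.0335 under voom). Knockout against control gave 0.25 ± 0.14 after TAC (adjusted p = 0.29), with no overlap, and −0.13 ± 0.14 after sham (adjusted p = 0.94). An antisense gene, Gm15469, shares 18.4% of the 50-base words of Trim54 transcripts and had 4 to 22 reads per library, and the strand setting of the counting is unknown here.

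Since Trim55 lay higher and Trim54 lower in control TAC than in control sham libraries, the ratios among the MuRF genes were also computed, a choice made after their values were seen. Trim55 over Trim54 was 0.535, 0.615 and 0.631 in control TAC libraries and 0.386, 0.294 and 0.257 in control sham libraries. The ratio was higher in every control TAC library, and the means of both knockout groups lay between, at 0.432 ± 0.0677 in knockout TAC and 0.450 ± 0.0619 in knockout sham libraries. In controls TAC against sham the mean log2 ratio differed by 0.94 (two-sided exact permutation p = 0.1, adjusted over 12 tests 0.24), and 3 against 3 libraries cannot give a p below 0.1. Knockout against control after TAC differed by −0.46 (exact permutation p = 0.1, adjusted 0.24). Trim55 over Trim63 was 0.346 ± 0.0463 in knockout TAC, 0.348 ± 0.0247 in knockout sham, 0.488 ± 0.0303 in control TAC and 0.310 ± 0.0606 in control sham libraries, with the control TAC libraries above all others. Trim54 over Trim63 was 0.824 ± 0.0406 in control TAC and 1.00 ± 0.14 in control sham libraries, a difference of −0.27 on the log2 scale (exact permutation p = 0.1, adjusted 0.24). None of the 12 ratio tests passed after adjustment, and with a smallest possible p of 0.1 none could, so these tests decide nothing. The ratios were not corrected for the trend with transcript length and GC content. With that trend removed, Trim55 still rose in controls, but the change of Trim54 there went from −0.31 to 0.15.

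**Figure D3:**
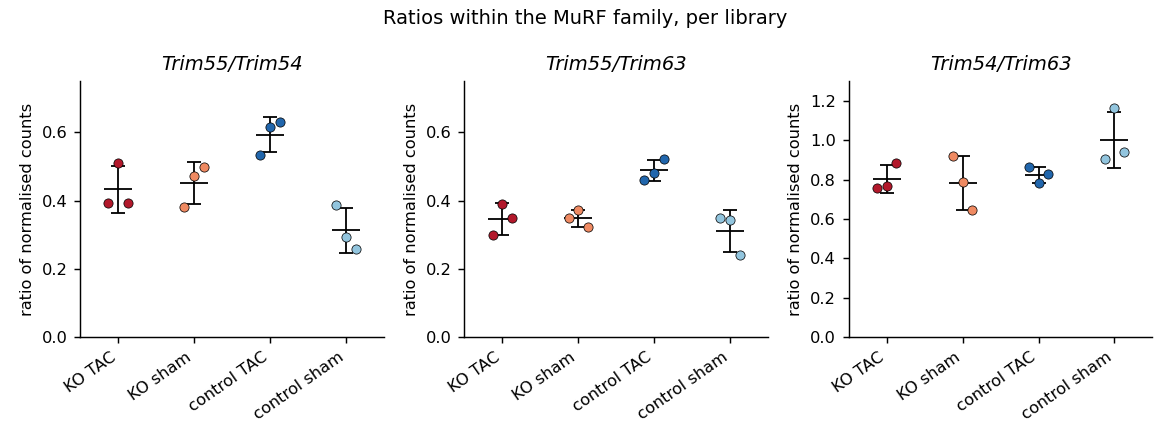
Ratio of normalised counts between MuRF genes (y axis, from 0) in each library of the 4 groups (points), with the group mean (horizontal mark) and SD (whiskers). The Trim55 over Trim54 ratio is 0.593 ± 0.0515 in control TAC and 0.312 ± 0.0668 in control sham libraries (SD, n = 3 each), with the means of the knockout groups in between. The ratios are not corrected for the trend with transcript length and GC content.

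Fbxo32 (ENSMUSG00000022358.7, chromosome 15, 58175879 to 58214932, reverse strand) encodes atrogin-1, the F-box subunit of an SCF ligase. It was listed at 0 in all 12 libraries and nothing can be said of its level. It lies in a run of 15 neighbouring annotated genes that are all at 0, over 472.3 kb (57985419 to 58457740). The 9 protein-coding genes of the run are Fam83a, 9130401M01Rik, Gm29394, Zhx1, Atad2, Wdyhv1, Fbxo32, Klhl38 and Fam91a1. Outside the run, Tbc1d31 had 927 reads and Derl1 7175 reads on the near side, and Fer1l6 153 reads and Tmem65 26555 reads on the far side, summed over the 12 libraries. Genes that every cell uses were at 0 in other such runs, looked up after their values were seen. Hnrnpu, which encodes an abundant nuclear RNA-binding protein, lay in a run of 10 genes at 0, Mat2a, the enzyme that makes S-adenosylmethionine, in a run of 11, and Ndufs3, a subunit of respiratory complex I, in a run of 3. Of 21980 protein-coding genes 5227 (23.8%) were at 0 in all 12 libraries. The source of the runs was not tested.

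**Figure D4:**
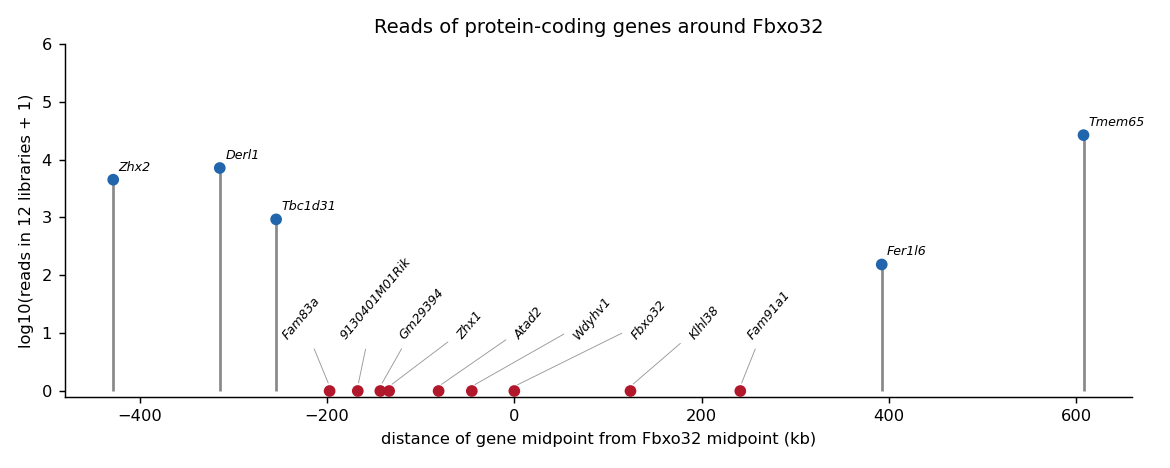
Reads of protein-coding genes summed over the 12 libraries (y axis, log10 of reads + 1) by the distance of the gene's midpoint from that of Fbxo32 (x axis, kb); red points are genes at 0. The 9 genes of the run around Fbxo32 are at 0, while Derl1 before it and Tmem65 after it have 7175 and 26555 reads.

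Foxo1 (ENSMUSG00000044167.6, chromosome 3, 52268336 to 52353221, forward strand) encodes a FoxO factor that insulin signalling inhibits. Its normalised counts were 304.2, 257 and 319.6 in knockout TAC and 272, 280.1 and 317.5 in knockout sham libraries, against 274, 271 and 228 in control TAC and 319, 326 and 335 in control sham libraries. The 3 control sham libraries were close together, and all lay above the 3 control TAC libraries and the 3 knockout sham libraries. TAC against sham in controls gave −0.34 ± 0.14 (0.788-fold, adjusted p = 0.0795), from 258 ± 25.3 in control TAC and 326 ± 8.2 in control sham libraries. With the trend with transcript length and GC content removed, Foxo1 fell by 0.76 (adjusted p = 0.00113), and its change of knockout against control after TAC was 0.60 (adjusted p = 0.015) where the fit without that correction gave 0.19 ± 0.14 (adjusted p = 0.42). Foxo1 has the longest exonic sequence of the 8 genes, 8665 bases. Other genes share 6.8% of its 50-base words, mostly the antisense gene Gm20402, which had 0 reads. In knockouts TAC against sham gave 0.02 ± 0.14 (adjusted p = 0.99), after sham knockout against control gave −0.17 ± 0.14 (adjusted p = 0.93), and the difference of the TAC effects was 0.36 ± 0.19 (adjusted p = 0.36).

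Foxo3 (ENSMUSG00000048756.11, chromosome 10, 42181841 to 42276755, reverse strand) encodes the FoxO factor best known for switching on atrogin-1 and autophagy in muscle. Its normalised counts were 1024.5, 1018 and 1149.5 in knockout TAC and 1160, 1288 and 1189 in knockout sham libraries, against 1303, 1148.5 and 1163 in control TAC and 1219, 1575 and 820 in control sham libraries. The control sham libraries held both the highest and the lowest value of the 12, the lowest being replicate 3. The knockout TAC libraries lay below the knockout sham libraries, with means of 1064 ± 74.1 in knockout TAC and 1212 ± 67.4 in knockout sham libraries, a change of −0.19 ± 0.18 (adjusted p = 0.88). In controls TAC against sham gave 0.05 ± 0.18 (adjusted p = 0.87), and this value ran from −0.20 to 0.27 when a library was left out. Knockout against control gave −0.18 ± 0.18 after TAC (adjusted p = 0.57) and 0.06 ± 0.18 after sham (adjusted p = 0.98). The difference of the TAC effects was −0.24 ± 0.25 (adjusted p = 0.68).

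Mstn (ENSMUSG00000026100.6, chromosome 1, 53061640 to 53068079, forward strand), which skeletal muscle makes in far larger amounts than heart, was at the low end of the counting. It had 56 reads in all, with reads in each of the 12 libraries. Its normalised counts were 4.8, 2.2 and 3.3 in knockout TAC and 9.2, 5.5 and 1.8 in knockout sham libraries, against 9.7, 1.0 and 5.6 in control TAC and 2.1, 8.5 and 1.7 in control sham libraries. All groups overlapped, and Mstn stayed under the filter, so no test was made. Several markers of fast skeletal muscle, a tissue that also makes these ligases, were at or near 0: Myf5 was at 0, Myh4 had 1 read and Myod1 5 reads over all libraries. Myh1, Pvalb and Myh2 had 18, 14 and 10 reads. Others had more, with 166 for Mylpf, 159 for Tnni2, 88 for Atp2a1, 83 for Tnnt3 and 49 for Actn3. Of the 12 markers 4 passed the filter and were tested. The summed normalised count of the 12-gene list was 592 to 629 in knockout TAC, 307 to 384 in knockout sham, 611 to 1081 in control TAC and 253 to 321 in control sham libraries. Most of it came from Mybpc2, a myosin-binding protein of fast fibres with 5524 reads, the only gene of the list that passed in controls TAC against sham, where it rose. In knockouts Mybpc2 had normalised counts of 564, 551 and 543 in TAC and 337, 260 and 289 in sham libraries, without overlap. There 0 markers of the list passed. The part of Mybpc2 and of the other markers in the members' values was not tested.

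Bnip3 (ENSMUSG00000078566.8, chromosome 7, 138890836 to 138909519, reverse strand) encodes an outer-membrane protein that recruits autophagosomes to mitochondria and is induced by hypoxia. Its upstream window is shown because the core of the hypoxia response element stands in it. It covers the 250 bases before the RefSeq start site at chr7:138909507-138909756 (reverse strand, GRCm38.p6), with the core in capitals (ACGTG on the gene's strand and CACGT on the other, overlapping as a palindrome).
Bnip3: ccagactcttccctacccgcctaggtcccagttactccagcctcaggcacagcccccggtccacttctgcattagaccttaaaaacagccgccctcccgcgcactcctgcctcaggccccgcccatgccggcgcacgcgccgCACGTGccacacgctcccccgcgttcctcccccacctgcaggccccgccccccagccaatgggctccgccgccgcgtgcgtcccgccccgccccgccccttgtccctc
The match starts at position −108, and 16.6% of the 32851 windows hold such letters on either strand. No FoxO letters stand in this window, nor in those of Foxo1, Foxo3 and Mstn.

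Bnip3 had normalised counts of 336, 268 and 170.1 in knockout TAC and 200.4, 189 and 194.5 in knockout sham libraries, against 271, 408 and 274 in control TAC and 248, 294 and 154 in control sham libraries. It was the most variable of the 6 tested members within groups, with a pooled SD of 0.385 on the log2 scale, against 0.126 for Foxo1, 0.130 for Trim63 and a median of 0.254 over all tested genes. TAC and sham libraries overlapped in both genotypes. The change was 0.35 ± 0.26 in knockouts (adjusted p = 0.84), from 258 ± 83.4 in knockout TAC and 195 ± 5.8 in knockout sham libraries. It was 0.47 ± 0.26 in controls (adjusted p = 0.20), from 318 ± 78.0 in control TAC and 232 ± 71.4 in control sham libraries. Single libraries moved these values. In knockouts the change was 0.14 without knockout TAC replicate 1 and 0.62 without knockout TAC replicate 3, and in controls 0.21 without control sham replicate 3 and 0.67 without control sham replicate 2. With voom and quality weights the change in knockouts was 0.62 (adjusted p = 0.0393). Knockout against control gave −0.33 ± 0.26 after TAC (adjusted p = 0.46), with −0.54 without knockout TAC replicate 1 and −0.05 without knockout TAC replicate 3, and −0.20 ± 0.26 after sham (adjusted p = 0.96), and the difference of the TAC effects was −0.12 ± 0.36 (adjusted p = 0.90). Other annotated genes, an antisense gene and pseudogenes among them, share 47.2% of the 50-base words of Bnip3 transcripts. Each of these genes had 0 to 3 reads per library, so few reads were counted to them. The effect of this sharing on the count and level of Bnip3 was not tested.

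Changes over all genes moved with transcript length and GC content, and these trends differed between the comparisons. Across the 13906 tested genes with an annotation, Spearman's rho between change and length was 0.409 for TAC against sham in controls, −0.013 in knockouts, and for knockout against control 0.086 in sham and −0.473 in TAC libraries. Between change and GC content it was −0.437 for TAC against sham in controls, −0.355 in knockouts, and for knockout against control −0.248 in sham and 0.164 in TAC libraries. The 3 control TAC libraries had rho values of 0.326 to 0.409 between their deviation from the mean and length, and the other 9 libraries −0.343 to 0.148. With the trend removed, Trim55 still rose in controls (0.60, adjusted p = 0.019), Foxo1 fell and the changes of Trim63 and Trim54 became positive, as given for each gene; the part of length and GC content in these changes was not tested. The exons of the tested members run from 1436 bases in Trim54 to 8665 bases in Foxo1.

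Other muscle ubiquitin ligases moved in both directions in controls. In TAC against sham of controls 8 of 25 rose, 3 fell and 14 did not pass limma-trend, where 21.6% of all tested genes passed, with a median change of 0.21 against 0.01 over all tested genes. The N-degron ligase Ubr4 rose to 4019 ± 305 in control TAC, against 2338 ± 48.3 in control sham libraries (0.78 ± 0.17, adjusted p = 0.00465). Fbxo40, which targets the insulin receptor substrate in muscle, rose by 0.78 ± 0.16 (adjusted p = 0.00357). The genes that fell were Asb2, which marks filamins (−0.56 ± 0.12, adjusted p = 0.00468), the chaperone-linked ligase Stub1 (−0.58 ± 0.13) and the sarcomeric Fbxl22 (−0.82 ± 0.18). The count that rose was 4 without control TAC replicate 2 and 5 without control TAC replicate 1, and with the length and GC trend removed 3 rose and 3 fell. In knockouts 0 of the 25 passed, where 1 of all 13916 tested genes did. An unadjusted p under 0.05 was found for 2 of the 25 and for 929 of all tested genes. Voom with quality weights called 843 genes there, with 3 of the 25 among them, all lower. After TAC, 2 ligases, Ubr4 among them (−1.001 ± 0.17, adjusted p = 0.00369), were lower in knockouts than in controls and Fbxl22 was higher (0.84 ± 0.18, adjusted p = 0.0119), 3 of 25 where 8.23% of all tested genes passed. The count that was higher was 0 without control TAC replicate 1, knockout TAC replicate 1 or knockout TAC replicate 2, and 3 without control TAC replicate 3. The count that was lower was 5 without control sham replicate 3. The difference of the TAC effects of Ubr4 (−1.01, adjusted p = 0.0733) did not pass in the main limma-trend fit. It passed with DESeq2 (adjusted p = 0.00901) and under voom with quality weights (adjusted p = 0.00142), but not with edgeR.

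Genes upstream of the FoxO factors mostly rose where they passed in controls. In controls TAC against sham, 11 of 25 rose, 1 fell, the FoxO gene Foxo6 (−1.27 ± 0.37), and 13 did not pass, with a median of 0.30 and 21.6% of all tested genes passing. The insulin receptor Insr rose to 3125 ± 223 in control TAC, against 1645 ± 229 in control sham libraries (0.93 ± 0.15, adjusted p = 0.000775). Its substrate Irs1 rose by 1.11 ± 0.23 (adjusted p = 0.00416), the Akt-activating kinase Pdpk1 by 0.95 ± 0.18 (adjusted p = 0.00201) and the lipid kinase Pik3ca by 0.57 ± 0.14 (adjusted p = 0.0119). With the length and GC trend removed only 2 of the 25 rose, and Pik3ca stood at −0.03. Without control TAC replicate 2, 4 rose, and without control sham replicate 2, control sham replicate 3 or control TAC replicate 1, 7 did. In knockouts 0 passed, where 1 of all 13916 tested genes did. An unadjusted p under 0.05 was found for 1 of the 25 and for 929 of all tested genes. Voom with quality weights called 1 of the 25 there, which was lower. After TAC 4 of 25 were lower in knockouts than in controls, where 8.23% of all tested genes passed, namely Irs1 (−1.05 ± 0.23), Pdpk1 (−0.81 ± 0.18), the growth factor receptor Igf1r (−0.80 ± 0.18) and Insr (−0.65 ± 0.15). With the length and GC trend removed, 0 of the 25 passed in that comparison, and the count was also 0 without either control TAC replicate 2 or knockout TAC replicate 2, 1 without knockout TAC replicate 1, 2 without control TAC replicate 1 and 8 without control sham replicate 3. In the main limma-trend fit the differences of the TAC effects of Insr (−0.94, adjusted p = 0.0603) and Pdpk1 (−1.04, adjusted p = 0.0781) did not pass. Both passed with DESeq2 (adjusted p = 0.00219 for Insr and 0.0107 for Pdpk1). They also passed under voom with quality weights (adjusted p = 0.00292 and 0.00561), while edgeR called neither.

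Of 30 further FoxO targets, most of them autophagy and stress genes, 2 rose, 4 fell and 24 did not pass in controls TAC against sham (median −0.06). This share of 6 in 30 was near the 21.6% of all tested genes. The autophagy protein gene Map1lc3a fell to 3683 ± 415 in control TAC, against 7267 ± 1001 in control sham libraries (−0.98 ± 0.14, adjusted p = 0.000444). Pink1, the kinase that flags damaged mitochondria, fell to 6740.1 ± 230 in control TAC, against 11645 ± 968 in control sham libraries (−0.79 ± 0.12, adjusted p = 0.000472). Map1lc3b (−0.59 ± 0.13) and the mitochondrial dismutase Sod2 (−0.39 ± 0.12) also fell, while the stress protein Sesn3 (0.95 ± 0.21) and the autophagy kinase Ulk2 (0.56 ± 0.17) rose. The count of genes that rose was 1 without control sham replicate 3 or any control TAC library, and 5 without control sham replicate 2; with the length and GC trend removed 0 rose and 8 fell. In knockouts 0 of the 30 passed, where 1 of all 13916 tested genes did. An unadjusted p under 0.05 was found for 0 of the 30 and for 929 of all tested genes. Voom with quality weights called 1 of the 30 there, which was higher. After TAC Map1lc3a (0.67 ± 0.14, adjusted p = 0.0112) and Pink1 (0.56 ± 0.12, adjusted p = 0.0103) were higher in knockouts than in controls, 2 of 30 where 8.23% of all tested genes passed. Neither passed without knockout TAC replicate 1 or replicate 2, at changes of about the same size (Map1lc3a 0.66 and 0.62, Pink1 0.54 and 0.56), and 4 targets were higher without control sham replicate 3 or knockout TAC replicate 3. In the main limma-trend fit neither passed in the difference of the TAC effects (Map1lc3a 0.69, adjusted p = 0.12, and Pink1 0.56, adjusted p = 0.119). DESeq2 called both (adjusted p = 0.0334 for Map1lc3a and 0.00944 for Pink1). Both were also called by voom with quality weights (adjusted p = 0.00722 and 0.00318), and edgeR called neither.

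Of 23 genes of the myostatin pathway 22 were in the table and 20 were tested. In TAC against sham of controls 5 rose, 0 fell and 15 did not pass (median 0.15), a share near the 21.6% of all tested genes that passed. Fstl3, which binds and blocks myostatin and activins, rose to 42.5 ± 3.84 in control TAC, against 12.1 ± 2.42 in control sham libraries (1.74 ± 0.33, adjusted p = 0.00215). Inhba, the activin A subunit, rose to 67.0 ± 25.4 in control TAC, against 18.9 ± 1.65 in control sham libraries (1.72 ± 0.40, adjusted p = 0.00771). The secreted Fstl1 (0.86 ± 0.16, adjusted p = 0.00239), the type I receptor Tgfbr1 (1.01 ± 0.23, adjusted p = 0.00738) and the activin receptor Acvr2a (0.72 ± 0.18, adjusted p = 0.0122) completed the 5. The count that rose was 5 whichever library was left out, and 2 rose with the length and GC trend removed. In knockouts 0 of the 20 passed, where 1 of all 13916 tested genes did. An unadjusted p under 0.05 was found for 2 of the 20 and for 929 of all tested genes. Voom with quality weights called 2 of the 20 there, both higher. After TAC Inhba (−1.47 ± 0.40), Fstl1 (−0.59 ± 0.17) and the latent TGF-beta binding protein Ltbp3 (−0.62 ± 0.12) were lower in knockouts than in controls, and the count was 1 without control TAC replicate 1, control TAC replicate 2 or knockout TAC replicate 1 and 5 without control sham replicate 3; 3 of 20 compares with 8.23% of all tested genes. Without knockout TAC replicate 3 the change of Fstl1 was −0.35 (adjusted p = 0.0765). Fibroblast markers moved alongside, with 3 of 8 higher in control TAC than in control sham libraries and 5 of 8 lower in knockout TAC than in control TAC libraries. Their summed normalised count was 9943 to 13576 in knockout TAC, 11452 to 12331 in knockout sham, 17541 to 19368 in control TAC and 11565 to 14016 in control sham libraries; their part in the result was not tested. The differences of the TAC effects of Tgfbr1 (−0.83, adjusted p = 0.225) and Fstl1 (−0.54, adjusted p = 0.265) did not pass.

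Among 16 hypoxia genes listed beside Bnip3, 3 rose, 4 fell and 9 did not pass in controls TAC against sham (median −0.17), where 21.6% of all tested genes passed. The hypoxia factor Hif1a rose to 936 ± 177 in control TAC, against 448 ± 96.6 in control sham libraries (1.07 ± 0.17, adjusted p = 0.000937). The collagen hydroxylase P4ha1 (0.64 ± 0.16) and the pyruvate dehydrogenase kinase Pdk1 (0.69 ± 0.22) rose, while the glycolytic Pgk1 (−0.70 ± 0.17) and Ldha (−0.51 ± 0.13), the stress gene Ndrg1 (−0.46 ± 0.15) and Epas1, which encodes HIF-2 alpha (−0.41 ± 0.13), fell. The counts went down to 1 risen and 1 fallen without control TAC replicate 2. The fallen were 1 without control sham replicate 2 and 2 without control TAC replicate 1 or 3, and with the length and GC trend removed 1 rose and 3 fell. In knockouts 0 of the 16 passed, where 1 of all 13916 tested genes did. An unadjusted p under 0.05 was found for 2 of the 16 and for 929 of all tested genes. Voom with quality weights called 2 of the 16 as higher and 1 as lower there. After TAC Adm, the vasodilator adrenomedullin, was higher in knockouts (127 ± 15.1 in knockout TAC, 79.5 ± 1.39 in control TAC, change 0.67 ± 0.17, adjusted p = 0.024), the 1 of 16 that passed, where 8.23% of all tested genes did. The call was lost without control TAC replicate 1 (0.65), control TAC replicate 2 (0.67), knockout TAC replicate 1 (0.63) or knockout TAC replicate 2 (0.60), at changes of about the same size. In the main limma-trend fit neither Hif1a (−0.76, adjusted p = 0.152) nor Adm (0.71, adjusted p = 0.163) passed in the difference of the TAC effects. Voom with quality weights called both (adjusted p = 0.0335 for Hif1a and 0.0414 for Adm), while edgeR and DESeq2 called neither.

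Knockout against control after sham gave 0 called genes in each of these 5 lists by limma-trend, edgeR and DESeq2, where limma-trend called 0 of all 13916 tested genes. An unadjusted p under 0.05 was found for 3 hypoxia genes and for 1 gene in each of the other 4 lists. In the difference of the TAC effects 0 genes of the 5 lists passed limma-trend or edgeR, where 0.309% of all tested genes passed limma-trend. DESeq2 called 2 ligases, 3 genes upstream of FoxO and 2 FoxO targets there. Without control sham replicate 1 limma-trend called 4 ligases, 6 genes upstream of FoxO, 1 FoxO target and 1 hypoxia gene as lower. It also called 1 FoxO target as higher in that fit, where 758 genes were called over all. Voom with quality weights called 5 ligases, 6 genes upstream of FoxO, 1 FoxO target, 1 gene of the myostatin pathway and 1 hypoxia gene as lower. As higher it called 1 gene upstream of FoxO, 4 FoxO targets and 1 hypoxia gene. Over all genes DESeq2 called 463 and voom 1573. With the length and GC trend removed, Ubr4, Asb2, Irs1, Pik3ca, Sesn3, Tgfbr1, Inhba, P4ha1 and Ldha no longer passed in controls, nor did Ubr4, Insr, Pdpk1, Irs1, Map1lc3a, Pink1, Fstl1, Inhba and Adm after TAC. Some of these changes moved far, as for Pik3ca in controls and for Insr after TAC (−0.21), and others little, as for Fstl1 (−0.52) and Inhba (−1.20) after TAC. With a library left out, Pik3ca, P4ha1 and Ldha lost their calls in controls in at least 1 of the 12 fits, and Insr, Pdpk1, Irs1, Map1lc3a, Pink1, Fstl1, Inhba and Adm after TAC. Genes named in the lists were those with the 4 smallest p in controls and the 2 smallest p in the difference of TAC effects; Stub1, Fbxl22, Foxo6, Igf1r, Sod2, Ulk2, Acvr2a, Ltbp3, Pdk1, Ndrg1 and Epas1 were added after their values were seen, to complete a count.

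Markers of some other cell types moved in the comparison of controls in which these lists were called, where 21.6% of all tested genes passed. Of 7 atrial cardiomyocyte markers 6 were tested, and 5 rose and 1 fell in control TAC against control sham libraries, and after TAC 1 was higher and 4 were lower in knockouts than in controls. Their summed normalised count was 1527 to 2231 in knockout TAC, 1180 to 1245 in knockout sham, 3036 to 6334 in control TAC and 650 to 1178 in control sham libraries. Of 8 mesothelial markers 7 were tested, and 5 fell in controls and 2 were higher in knockouts after TAC, with sums of 205 to 421 in knockout TAC, 204 to 408 in knockout sham, 66.2 to 196 in control TAC and 220.3 to 552 in control sham libraries. Of 6 erythroid markers 5 were tested, and 3 fell in controls and 2 were higher in knockouts after TAC, with sums of 3146 to 10438 in knockout TAC, 4494 to 5869 in knockout sham, 2407 to 4123.5 in control TAC and 6159 to 6729 in control sham libraries. Of 8 endothelial and 8 macrophage markers, all tested, 0 passed in controls or in knockout against control after TAC. Of 5 smooth muscle markers 2 fell in controls, and of 3 tested brown adipocyte markers 1 did. After TAC 0 markers of either list passed, where 8.23% of all tested genes did. In knockout TAC replicate 2 the adipocyte markers Adipoq and Plin1 had normalised counts of 65.4 and 39.9. The other libraries had at most 18.1 and 9.1. Cidea and Fabp4 of the same list lay within the range of the other libraries there. The part of these cell types in the changes of the lists was not tested.

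**Figure D5:**
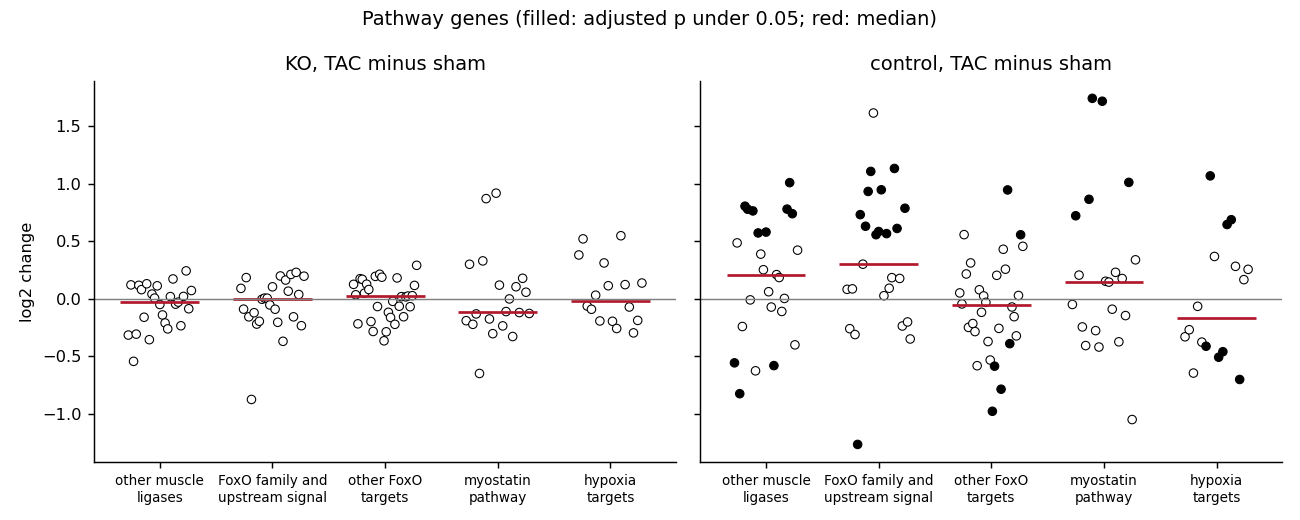
Change in log2(normalised count + 1) (y axis) of the genes of the 5 pathway lists (columns of points; filled where the adjusted p is under 0.05, red line at the list's median) in TAC against sham of knockouts and of controls. No point is filled in knockouts, where 1 of all 13916 tested genes passed, and the median of the genes upstream of FoxO is 0.30 in controls.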

How the data were processed

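The authors aligned reads with STAR to GRCm38.p6 and counted them with featureCounts, and SAMtools is also named, per the submitters' processing notes; no source used here gives versions, annotation or strand setting. The deposited signal values are reads divided by a size factor per library: 100.0% of values were whole multiples within 0.01, which gave back the reads, and median-of-ratios factors of these reads matched the steps. Every value column matched a sample (0 did not). IDs were matched to GENCODE M21 (55480 of 56350). With limma-trend (limma 3.58.1, R 4.3.3, robust), 4 group means were fitted to log2(value + 1) of 12 libraries, and 5 contrasts were each adjusted by Benjamini-Hochberg over 13916 genes at a threshold of 0.05; the fit was tested on simulated data. Libraries of a group were not duplicates (chi-square per gene 5.55 to 59.1). Alternatives used edgeR 4.0.16 and DESeq2 1.42.0 on recovered reads, voom, other scalings, filters and pseudocounts, and left-out libraries. Tables, exact permutation tests and plots used Python 3.11.15, pandas 2.3.3, scipy 1.17.1 and matplotlib 3.10.9. Promoter sequences came from RefSeq (GRCm38.p6), which matched 6 of the 8 genes; Fbxo32 and Trim55 were not among them. Beside the members, the text names in each list the up to 4 genes with the smallest p in TAC against sham of controls and up to 2 for the difference of TAC effects. A gene that this rule names is not reported here. The members, lists and naming rules were chosen with earlier results of these data known.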

Additional observations from a re-analysis of the deposited data

How the results depend on the processing

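Of 744 values of the members under other settings, 694 kept their direction and side of the threshold, 2 lost a call, 9 gained one and 39 changed sign, all 39 among values that had not passed. The count of members called in controls TAC against sham was 0 with only the libraries compared, and 2 with the length and GC trend removed, with voom and with control sham 3 and KO TAC 3 both left out (chosen after seeing the data); with a library left out it ran from 0 to 2. After TAC, knockout against control gave 1 member under each of the last 3 settings, and voom gave 1 in knockouts TAC against sham and 1 for the difference of the TAC effects, Trim54. Genes called in controls were 1444 with only the libraries compared, 1467 with the trend removed and 1533 to 3656 with a library left out. In knockouts they were 2 without a filter, 25 with only the libraries compared, 204 with both libraries left out, 843 with voom, 23 with DESeq2 and 0 to 7 with a library left out. After sham, DESeq2 called 1 gene and leaving out a library 0 to 1. After TAC they were 588 with the trend removed, 3315 with both left out, 3812 with voom and 202 to 2144 with a library left out. For the difference they were 65 with a pseudocount of 5, 124 without a filter, 95 scaled by total reads, 20 with the trend removed, 1161 with both left out, 1573 with voom, 463 with DESeq2 and 8 to 758 with a library left out. The cause was not tested.

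Changes of sign were as follows. In controls TAC against sham, Trim63 was 0.14, Trim54 0.15 and Foxo3 −0.14 with the trend removed, Foxo3 −0.20 with both left out, −0.17 with voom and −0.0018 with edgeR, and Pik3ca −0.029 with the trend removed. In knockouts, scaling by total reads gave −0.0017 for Trim63, −0.016 for Trim55 and −0.012 for Foxo1, removal of the trend −0.024 for Trim55, and both left out −0.047 for Foxo1. After sham Foxo3 was −0.014 scaled by total reads, −0.19 with both left out and −0.16 with voom, and after TAC 0.12 with the trend removed. The difference was −0.10 for Trim63 and 0.064 for Foxo3 with the trend removed, and 0.42 and 0.39 for Bnip3 with both left out and with voom.

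With a library left out, Trim63 ran from −0.11 to 0.024 and Foxo3 from −0.20 to 0.27 in controls, and Trim63 from −0.045 to 0.11, Trim55 from −0.063 to 0.057 and Foxo1 from −0.047 to 0.11 in knockouts. After sham Trim54 ran from −0.22 to 0.021 and Foxo3 from −0.19 to 0.28, and for the difference Foxo3 from −0.46 to 0.015, Bnip3 from −0.34 to 0.15 and Trim63 from −0.0069 to 0.15.

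Deviations of same-numbered libraries from their group means correlated at −0.072 to 0.249 (median 0.028). Those of differently numbered libraries correlated at −0.255 to 0.156 (median −0.0). The highest value, 0.249, was between control sham replicate 3 and knockout TAC replicate 3. Whether replicate numbers pair the libraries was not tested. With the replicate number as a block, 3151 genes were called in controls, 3 in knockouts, 0 after sham, 1198 after TAC and 47 for the difference, and 1 member, Trim55 in controls (adjusted p = 0.008). Depth limits Mstn, with 1 to 9 reads a library, and Fbxo32 could not be assessed.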
